A study of Mus musculus with 11 samples.

Results

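The comparison set enterochromaffin (EC) cell libraries of the mouse colon against libraries labelled L cells, both from mice given vehicle. It used 4 of the 11 libraries of the series, EC vehicle libraries 1 and 2 and L vehicle libraries 1 and 2. Gene tables were joined by symbol, and 10710 of 49997 genes were kept because they reached at least 5 CPM (counts per 1000000, scaled by each library's reads on genes) in both libraries of at least 1 group. All mice were ovariectomised C57BL/6 females of 10 to 14 weeks, and the vehicle was sesame oil. The L-cell libraries came from Cck-Cre;R26LSL-tdTomato mice, in which a Cre recombinase driven by the cholecystokinin gene Cck switches on a red fluorescent protein. These cells were taken 4 h after treatment, and about 7000 of them were collected per treatment group. The EC-cell libraries came from the line ECFLTG, with at least 500 cells per sample and no time after treatment in the labels. The remaining 7 libraries came from mice given estradiol benzoate (EB), an ester of the sex steroid estradiol, with 4 EC and 3 L libraries. Cell type was therefore joined to mouse line, to the number of cells and to the table the values came from, and the contributions of these cannot be told apart. The labels do not say whether replicate libraries stem from different animals, and the p-values reflect the spread among libraries, part of which may be technical.

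Both cell types are enteroendocrine cells, rare hormone-secreting cells of the gut epithelium that share granins, prohormone convertases and the machinery of regulated vesicle release. EC cells make serotonin from tryptophan with tryptophan hydroxylase 1 (Tph1), load it into vesicles and release it onto sensory nerve endings when mechanical or chemical stimuli depolarise them. L cells process proglucagon (Gcg) into glucagon-like peptides and secrete peptide YY (Pyy), which slow gut transit and lower food intake.

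The labels were first set against the markers of each cell type. The EC-cell marker list took 7.42% and 8.88% of the reads in EC libraries 1 and 2, and 0.00756% and 0.00824% in L libraries 1 and 2. The 8 genes of the L-cell hormone list took 0.255% and 1.86% in the EC libraries but 0.0486% and 0.0179% in the L libraries. Colonocyte markers, genes of the absorptive cells that line the colon, took 1.48% and 0.325% in the EC libraries and 10.7% and 9.43% in the L libraries. The granins Chgb (44819 and 49588 CPM in EC libraries 1 and 2) and Chga (19740 and 27452 CPM) made up most of the EC-cell marker share. Granins are shared by enteroendocrine cells, so that share does not by itself mark EC cells. Tph1 stood at 6997 and 8495 CPM in the EC libraries and at 1.10 and 0.959 CPM in the L libraries. In EC library 2, Pyy (8887 CPM) and Gcg (7052 CPM) stood near Tph1. The EC libraries thus held EC-cell markers together with L-cell hormones. The libraries labelled L cells held less of the L-cell hormones than the EC libraries did and more of the colonocyte transcripts. They are called L libraries below, as a name for the label only, and every difference is one between these libraries rather than between pure cell types. The part that these other transcripts play in the differences below was not tested.

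**Figure D1:**
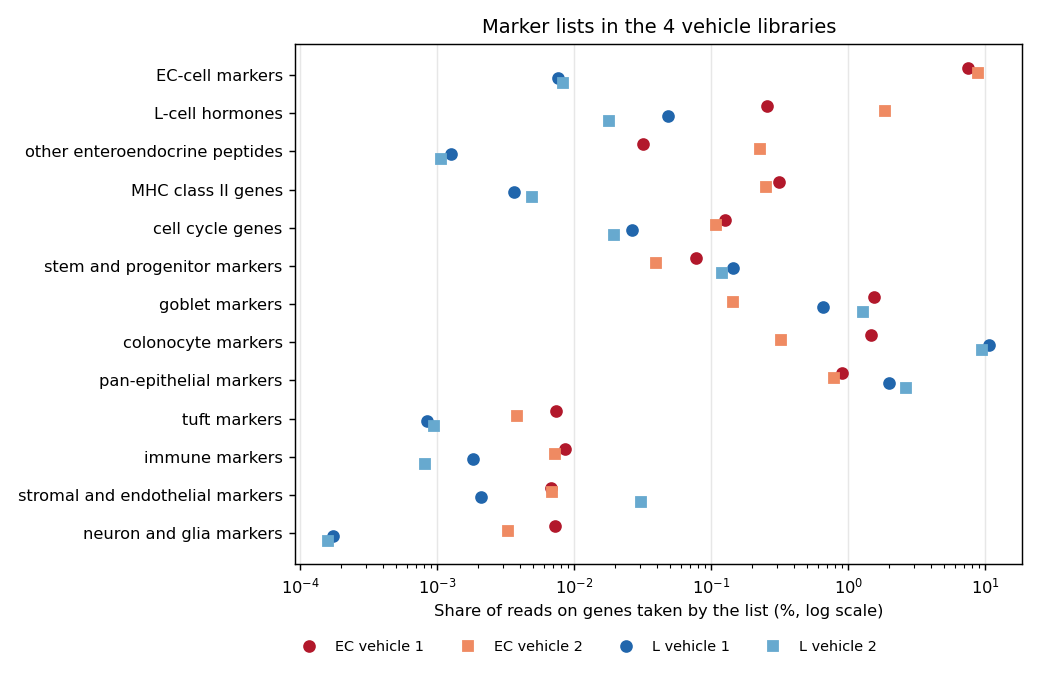
Share of the reads on genes (%, log axis) taken by 13 marker lists, with 1 point for each of the 4 vehicle libraries (EC in red tones, L in blue tones). EC-cell markers and MHC class II genes sit far to the right in both EC libraries, colonocyte markers in both L libraries, and goblet markers divide the 2 EC libraries (1.55% and 0.144%).

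The EC libraries held 10640921 and 4955808 reads on genes, and the L libraries 28308226 and 29210807. The 2 L libraries were alike across the kept genes (Spearman correlation 0.973 over 10710 genes, which share each library's depth), whereas the 2 EC libraries were not (0.711), and EC library 1 lay nearly as close to L library 1 (0.667). The SD of the log2 difference between replicates was 1.53 in the EC pair and 0.472 in the L pair. The gene with the largest share of reads was chromogranin B (Chgb) in both EC libraries, at 4.48% and 4.96%, and carbonic anhydrase 1 (Car1) in both L libraries, at 5.98% and 4.58%.

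Of the 10710 genes, 2641 (24.7%) were called, that is, had a Benjamini-Hochberg adjusted p under 0.05 in limma on log2(CPM + 1). The EC libraries were higher for 1986 of them (18.5% of the genes tested) and the L libraries for 655 (6.12%). At an unadjusted p under 0.05 there were 4503, but such p-values came up more often than their nominal rate in simulated data. The adjusted p-values are computed from the same p-values and share that limit. The filter itself fixed part of this split: 1154 of the calls higher in EC passed it only through the EC libraries, and 213 of those higher in L only through the L libraries. The median log2 fold change was 2.85 over the 1809 genes that passed only through EC and -1.88 over the 1476 only through L, so the counts and medians of lists below describe the genes that passed and do not support a direction. Among the 7425 genes that passed through both groups, 832 were called higher in EC and 442 higher in L. Groups did not overlap for 5162 genes higher in EC (48.2%) and for 2478 higher in L (23.1%). An exact two-sided permutation test of 2 libraries against 2 cannot go below a p of 0.333, so the calls rest on the spread that limma pools over genes.

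The calls depended on both L libraries. Without L library 1, 3 genes were called (Chgb, Chga and Tph1), and without L library 2 none was, by limma, with 1994 and 1729 genes at an unadjusted p under 0.05, since the spread then came from the EC pair alone. Without EC library 1 or EC library 2 the spread came from the L pair, and 7280 and 5427 genes were called. In none of these fits was a called gene called in the opposite direction, but they reuse libraries of the full fit. A gene whose groups did not overlap could not change sign in them, so this says little about direction. Each call named below is subject to the dependence on both L libraries. The scale mattered for the balance of the 2 directions: 75.2% of the calls were higher in EC on the CPM scale, 53.1% after TMM scaling, 50.02% with DESeq2 size factors, 56.1% after quantile scaling and 69.8% when colonocyte markers were left out of the totals. The median log2 fold change of all genes, EC minus L, was 0.44 on the CPM scale and shifted by -0.50 with TMM and by -0.55 with size factors, so fold changes are best read against that median.

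**Figure D2:**
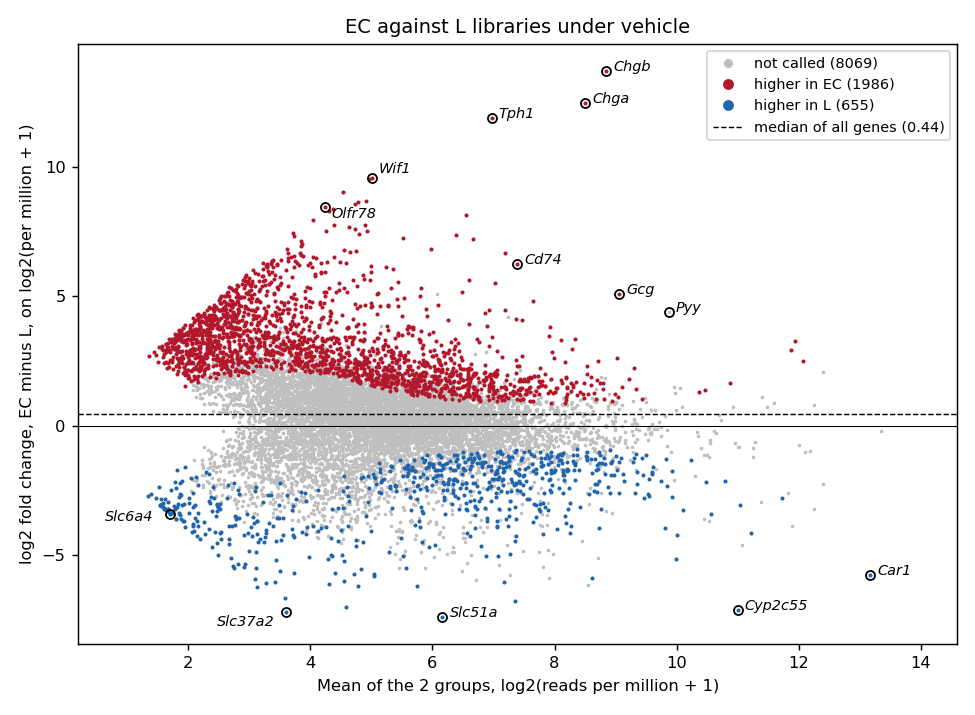
Log2 fold change, EC minus L, against the mean of the 2 group levels (both on log2(CPM + 1)) for the 10710 genes kept, coloured by call (8069 not called, 1986 higher in EC, 655 higher in L), with the median of all genes at 0.44 as a dashed line. Chgb, Chga and Tph1 stand apart at the top, and Car1 and Cyp2c55 lie at the lower right, where levels are high and the L libraries exceed the EC libraries.

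The promoters of the 3 genes with the largest fold toward EC, and of 2 colonocyte-list genes among the 12 with the largest fold toward L, are shown so that the ends of the range can be seen as sequence. Each window runs from 250 bases before to 50 bases after the start annotated by RefSeq (GRCm38.p6), 5′ to 3′ on the strand of the gene. Capitals mark TGACG or its reverse complement CGTCA (the half-site of the cyclic AMP response element) and, on either strand, the TATA box TATAAA. They lie at chr2:132781392-132781691 (plus strand, Chgb), chr12:102554691-102554990 (plus, Chga), chr7:46672488-46672787 (minus, Tph1), chr16:32487830-32488129 (minus, Slc51a) and chr19:39006769-39007068 (plus, Cyp2c55).
Chgb: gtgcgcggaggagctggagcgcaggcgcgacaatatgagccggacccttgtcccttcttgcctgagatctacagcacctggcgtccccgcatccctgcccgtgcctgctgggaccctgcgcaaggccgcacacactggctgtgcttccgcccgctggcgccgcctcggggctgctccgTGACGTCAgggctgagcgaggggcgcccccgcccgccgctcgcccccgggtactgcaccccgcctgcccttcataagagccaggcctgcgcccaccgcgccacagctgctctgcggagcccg
Chga: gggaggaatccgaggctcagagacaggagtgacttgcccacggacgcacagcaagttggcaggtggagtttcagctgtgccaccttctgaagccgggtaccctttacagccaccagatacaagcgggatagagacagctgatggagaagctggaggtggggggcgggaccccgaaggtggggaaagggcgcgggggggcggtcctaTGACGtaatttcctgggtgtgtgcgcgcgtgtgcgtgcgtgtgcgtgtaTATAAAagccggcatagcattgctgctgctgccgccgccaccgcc
Tph1: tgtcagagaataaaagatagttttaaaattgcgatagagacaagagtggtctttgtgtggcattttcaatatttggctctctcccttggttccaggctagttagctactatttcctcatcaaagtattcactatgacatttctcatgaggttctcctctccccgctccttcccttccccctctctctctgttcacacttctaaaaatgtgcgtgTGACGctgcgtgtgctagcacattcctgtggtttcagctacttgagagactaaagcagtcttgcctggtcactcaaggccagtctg
Slc51a: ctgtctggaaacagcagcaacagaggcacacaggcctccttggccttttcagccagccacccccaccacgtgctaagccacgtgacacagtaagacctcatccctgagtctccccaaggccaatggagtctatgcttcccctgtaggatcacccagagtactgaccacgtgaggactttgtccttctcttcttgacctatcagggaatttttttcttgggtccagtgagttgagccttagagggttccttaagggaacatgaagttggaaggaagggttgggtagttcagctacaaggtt
Cyp2c55: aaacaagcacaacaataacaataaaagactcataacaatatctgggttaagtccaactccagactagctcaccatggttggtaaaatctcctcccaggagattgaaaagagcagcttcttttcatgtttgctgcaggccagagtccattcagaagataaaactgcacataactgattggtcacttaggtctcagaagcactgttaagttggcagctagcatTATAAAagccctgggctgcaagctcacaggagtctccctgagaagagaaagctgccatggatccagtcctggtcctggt
The Chgb window held the 2 half-sites as 1 palindrome, TGACGTCA, whose first base lies at -72 from the start. Chga had 1 half-site at -44 and a TATAAA whose first base lies 5 bases after the annotated start, and Tph1 had 1 half-site at -36. No match was present in these letters in the Slc51a window, and Cyp2c55 had a TATAAA at -29. TGACG on either strand was present in 20.8% of 32851 mouse promoter windows, in 3 of the 10 matched promoters of the 12 genes with the largest fold toward EC (Chgb, Chga and Tph1), and in 3 of the 9 matched of the 12 toward L (Slc37a2, Fmo5 and Ggt1). TATAAA was present in 13.6% of all windows, in 3 of the 10 and in 2 of the 9. In all, 8 motifs were searched, and the 2 marked here, like the 5 promoters, were chosen after the matches had been seen, so the matches are a description only. The others were the full element TGACGTCA, the E-boxes CAGATG (in 0 of the 10 and 2 of the 9) and CACCTG (in 3 and 1), the caudal motif TTTATG (in 0 and 0), and for TCF/LEF factors CTTTGAT (in 1 and 0) with the shorter CAAAG (in 6 and 5).

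Of 13 genes for serotonin synthesis, storage, uptake and breakdown 12 passed the filter, 3 only through EC and 1 only through L. Of these, 4 were called higher in EC (Tph1, Ddc, Slc18a1 and Gch1) and 3 higher in L (Slc6a4, Spr and Aldh2). The shares were 33.3% and 25%, against 18.5% and 6.12% of all genes, and the median log2 fold change was 0.60. Tph1, whose enzyme sets the rate of serotonin production outside the brain (chromosome 7, 46644641 to 46672537), stood at 6997 and 8495 CPM in EC libraries 1 and 2 and at 1.10 and 0.959 CPM in L libraries 1 and 2. The groups did not overlap, and the replicates lay close together in both. Its log2 fold change, EC minus L, was 11.89 ± 0.25 (SE, n = 2 and 2), with an adjusted p of 0.00151, the smallest of all genes. Aromatic amino acid decarboxylase (Ddc), which completes serotonin synthesis, stood at 842 and 986 CPM in EC and at 54.9 and 72.5 CPM in L, a log2 fold change of 3.83 ± 0.26 (adjusted p = 0.0132). The vesicular monoamine transporter Slc18a1, which loads serotonin into granules of endocrine cells, stood at 898 and 1255 CPM against 4.77 and 6.30 CPM. Its log2 fold change was 7.35 ± 0.31 (adjusted p = 0.0104). The related transporter Slc18a2, the neuronal form, was not called at 12.8 and 32.1 CPM against 3.32 and 1.20 CPM (log2 fold change 2.79 ± 0.72, adjusted p = 0.0513).

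The enzymes that make and recycle tetrahydrobiopterin, the cofactor of Tph1, were divided. Gch1, which starts its synthesis, stood at 154 and 256 CPM in EC and at 28.6 and 25.8 CPM in L (log2 fold change 2.83 ± 0.35, adjusted p = 0.0148), whereas Spr, which completes it, stood at 41.6 and 29.5 CPM against 102 and 103 CPM (log2 fold change -1.52 ± 0.32, adjusted p = 0.0338). Pts (adjusted p = 0.282) and the recycling enzyme Qdpr (0.113) were not called.

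The genes that take up or break down serotonin gave 2 calls, both higher in L. The serotonin reuptake transporter Slc6a4 (chromosome 11, 76998597 to 77032343) had 0 reads in both EC libraries and 8.30 and 10.9 CPM in the L libraries, which placed it at least 49.97-fold higher in L when the EC group was set to a limit of 3 reads (adjusted p = 0.0135). A count of 0 allows up to 0.192 CPM over the 2 EC libraries, for counting error only, and reads amplified by PCR are not independent molecules. Monoamine oxidase A (Maoa), which oxidises serotonin, stood at 199.7 and 10.3 CPM in EC and at 1580 and 1709 CPM in L. The groups did not overlap, but the EC libraries differed widely from each other, and the fold of -5.11 ± 1.37 was not called (adjusted p = 0.0557). Monoamine oxidase B (Maob) overlapped between the groups, at 56.2 and 29.7 CPM against 33.7 and 33.2 CPM, and its log2 fold change of 0.28 turned negative under TMM, size factor and quantile scaling. The aldehyde dehydrogenase Aldh2, which acts after the monoamine oxidases, was called higher in L, at 93.6 and 25.02 CPM against 521 and 807 CPM (log2 fold change -3.71 ± 0.67, adjusted p = 0.0254). Maoa, Maob, Aldh2 and the cofactor genes were chosen for the text after their values had been seen.

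The other EC-cell markers that were read lay the same way as Tph1. Chgb (chromosome 2, 132781642 to 132795079) encodes a granin, an acidic protein that condenses hormones in secretory granules. It stood at 44819 and 49588 CPM in EC and at 6.29 and 0.719 CPM in L, with a log2 fold change of 13.70 ± 0.71 (adjusted p = 0.0114). Chromogranin A (Chga; chromosome 12, 102554941 to 102565027), the general marker of enteroendocrine cells, stood at 19740 and 27452 CPM against 8.16 and 0.856 CPM, a log2 fold change of 12.46 ± 0.79 (adjusted p = 0.0132). For both granins the 2 L libraries differed from each other more than the EC libraries did, with L library 1 the higher. Tac1, the precursor of substance P, stood at 223 and 390 CPM in EC and at 0.106 and 0.719 CPM in L. The transcription factors Lmx1a and Fev, which act in the serotonergic fate, showed the same split. Lmx1a stood at 433 and 319 CPM against 0 and 0.274 CPM, and Fev at 36.7 and 69.6 CPM against 0.0707 and 0 CPM. The 2 reads of Fev in the L group give a pooled ratio of 1357, with a counting interval from 374 to 11227. Of the 12 genes on the list 9 passed the filter, 8 of them only through the EC libraries. The 9 were called higher in EC (against 18.5% of all genes). Their median log2 fold change was 7.94, against 2.85 for all genes that passed only through EC. Trpa1, an irritant-gated channel used as an EC-cell marker in the small intestine, had 0 reads in all 4 libraries.

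**Figure D3:**
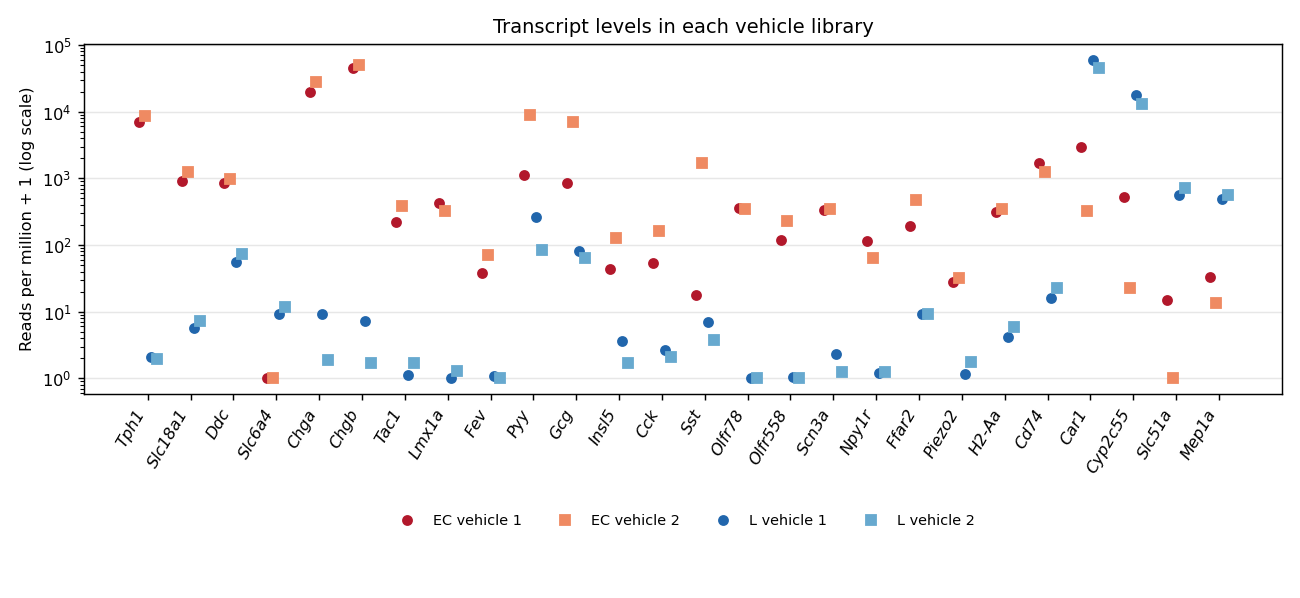
CPM + 1 (log axis) of 26 named genes in each vehicle library, EC libraries in red tones and L libraries in blue tones, circles for replicate 1 and squares for replicate 2. From Tph1 to Cd74 the EC points lie above the L points, except for Slc6a4, and for the colonocyte genes Car1, Cyp2c55, Slc51a and Mep1a the L points lie above.

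Genes of the secretory machinery passed the filter mostly through the EC libraries alone, so their counts do not support a direction. Chga, Chgb and Rab3c are also on the EC-cell marker list, so the counts below include them again. Of 14 genes for granins and prohormone processing 12 passed the filter, 9 only through EC. Of these 12, 11 were called higher in EC (91.7%, against 18.5% of all genes) and 0 higher in L. Their median log2 fold change was 6.74, against 2.85 for all genes that passed only through EC. Secretogranin 5 (Scg5), a chaperone of prohormone convertase 2, stood at 317 and 405 CPM in EC and at 1.52 and 0.377 CPM in L, a log2 fold change of 7.59 ± 0.52 (adjusted p = 0.0132). Resp18, a protein of the regulated endocrine secretory pathway, stood at 984 and 2257 CPM against 5.51 and 3.35 CPM. Of 36 genes for vesicle fusion 28 passed, 18 only through EC. Of these 28, 21 were called higher in EC (75%, against 18.5% of all genes) and 0 higher in L (median 4.67). The SNARE protein Snap25 stood at 704 and 510 CPM in EC and at 0.707 and 0.274 CPM in L. Its log2 fold change was 8.67 ± 0.44 (adjusted p = 0.0114). The small GTPase Rab3c of synaptic-type vesicles stood at 233 and 283 CPM against 0.0707 and 0.0342 CPM, and its 3 reads in the L group give a pooled ratio of 4771 with a counting interval from 1631 to 23145. Syt7, a calcium sensor of vesicle release, had reads in both L libraries, at 4.66 and 6.03 CPM against 256 and 242 CPM in EC (log2 fold change 5.31 ± 0.35). Ptprn, a phosphatase-like protein of dense-core granules, stood at 183 and 346 CPM against 0.459 and 0.308 CPM.

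Transcription factors of the enteroendocrine lineage likewise passed the filter mostly through the EC libraries alone, so their counts do not support a direction. Of 24 listed, 16 passed the filter, 14 only through the EC libraries. Of the 16, 14 were called higher in EC (87.5%, against 18.5% of all genes) and 0 higher in L. The median was 5.62, against 2.85 for all genes that passed only through EC. Neurod1, which acts downstream of the endocrine fate switch, stood at 303 and 579 CPM in EC and at 1.48 and 0.548 CPM in L, a log2 fold change of 7.74 ± 0.55 (adjusted p = 0.0132). Pax4 stood at 176 and 143 CPM against 0.177 and 0.411 CPM, and Nkx2-2 at 84.7 and 107 CPM against 0.106 and 0.171 CPM. Both were close between the EC replicates, and no group overlapped. Isl1 stood at 22.2 and 63.8 CPM in the EC libraries and at 1.66 and 0.514 CPM in the L libraries, a log2 fold change of 4.27 ± 0.75 (adjusted p = 0.0238). Etv1 stood at 10.995 and 56.1 CPM against 1.48 and 0.787 CPM, with an adjusted p of 0.0467 that was above 0.05 in several other fits, among them 0.0605 with TMM scaling.

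Outside the fixed lists, the 12 genes with the largest fold toward EC also included Wif1, Slc38a11, Amigo2 and Cryba2. Wif1, a secreted inhibitor of Wnt ligands, stood at 881 and 877 CPM in EC and at 0.353 and 0 CPM in L, a log2 fold change of 9.56 ± 0.40 (adjusted p = 0.0104). Slc38a11, a putative amino acid transporter, stood at 757 and 950 CPM against 0.283 and 0 CPM, and Cryba2, a crystallin, at 237 and 482 CPM against 0 and 0.171 CPM. Amigo2, an adhesion protein, divided the EC replicates more, at 252 and 948 CPM, against 0.53 and 0 CPM in L. The rule that picked the 4 required groups that did not overlap, so their lack of overlap is not a separate result.

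The listed receptors and channels through which EC cells sense their surroundings passed the filter through either EC or L alone. Their counts therefore do not support a direction. Olfr78, a G protein-coupled receptor for short-chain fatty acids such as acetate and propionate (chromosome 7, 102740721 to 102759471), stood at 358 and 347 CPM in EC and had 0 reads in both L libraries. It was at least 6762-fold higher in EC when the L group was set to a limit of 3 reads, or 0.0522 CPM (adjusted p = 0.0124). The related receptor Olfr558 stood at 120 and 227 CPM against 0.0353 and 0 CPM, and its single L read gives a pooled ratio of 8847 with a wide counting interval, from 1586 to 349592. The sodium channel Scn3a stood at 337 and 349 CPM in EC and at 1.31 and 0.24 CPM in L, a log2 fold change of 7.67 ± 0.53 (adjusted p = 0.0132). The mechanically gated channel Piezo2 stood at 27.1 and 30.9 CPM against 0.177 and 0.753 CPM (log2 fold change 4.38 ± 0.51, adjusted p = 0.014). The neuropeptide Y receptor Npy1r, at which peptide YY acts, stood at 116 and 62.8 CPM against 0.212 and 0.24 CPM (log2 fold change 6.14 ± 0.59). In contrast, the adrenergic receptor Adra2a divided the EC replicates, at 2.44 and 24.6 CPM against 14.9 and 18.3 CPM in L, and was not called (adjusted p = 0.557). Its log2 fold change of -0.90 became 0.55 without EC library 1. Trpc4, another channel of the list, was near 0, with 2 reads in EC and 0 in L. Of the 16 genes listed 11 passed, 8 only through EC and 3 only through L. Of these, 7 were called higher in EC (63.6%, against 18.5% of all genes) and 1 higher in L (9.09%, against 6.12%). The median was 5.04, and the gene called higher in L is not among those named above.

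Among the metabolite receptors, 10 of 17 passed the filter, 5 only through EC and 1 only through L. Of the 10, 6 were called higher in EC (60%, against 18.5% of all genes) and 2 higher in L (20%, against 6.12%). The median was 3.77, and the 2 called higher in L are not among the receptors named here. Ffar2, a second receptor for short-chain fatty acids, was read in every library, at 193 and 471 CPM in EC and at 8.30 and 8.32 CPM in L, a log2 fold change of 5.02 ± 0.51 (adjusted p = 0.0132). The third such receptor, Ffar3, had 0 reads in the EC libraries and 1 in the L libraries. The lactate receptor Hcar1 stood at 41.1 and 31.1 CPM against 0.424 and 1.71 CPM (log2 fold change 4.22 ± 0.60, adjusted p = 0.0169). Of 32 receptors for transmitters and peptide hormones 12 passed, 7 only through EC and 3 only through L. Of these 12, 7 were called higher in EC (58.3%, against 18.5% of all genes) and 0 higher in L (median 2.72). The cholecystokinin receptor Cckar was among the 7, at 42.3 and 62.4 CPM in EC and 1.02 and 0 CPM in L, though not in edgeR (adjusted p = 0.0746). Of 30 voltage-gated and potassium channel genes 13 passed, 9 only through EC. Of these 13, 10 were called higher in EC (76.9%, against 18.5% of all genes) and 0 higher in L (median 3.55). The potassium channel Kcnb2 stood at 75.5 and 80.7 CPM against 0.212 and 0.274 CPM. Kcnh6 stood at 131 and 114 CPM in EC against 9.22 and 9.07 CPM in L, with a log2 fold change of 3.60 ± 0.36 (adjusted p = 0.0132). The calcium channel subunit Cacna2d1 stood at 60.4 and 107 CPM against 0.106 and 0.137 CPM.

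The hormones that define L cells were higher in the EC libraries than in the L libraries. Gcg (chromosome 2, 62474530 to 62483653) stood at 859 and 7052 CPM in EC libraries 1 and 2 and at 79.7 and 63.1 CPM in L libraries 1 and 2. The log2 fold change was 5.10 ± 1.02 (adjusted p = 0.0307). Pyy (chromosome 11, 102106676 to 102107832) stood at 1107 and 8887 CPM against 267 and 82.0 CPM, a log2 fold change of 4.40 ± 1.14 that was not called (adjusted p = 0.0526). Without EC library 2 the Pyy fold was 2.89, and DESeq2 called it (adjusted p = 1.01e-05). For both hormones the groups did not overlap, and EC library 2 was several times above EC library 1. The same held for neurotensin (Nts), at 133 and 1221 CPM against 58.5 and 7.26 CPM (adjusted p = 0.0905). Insulin-like peptide 5 (Insl5), a hormone of distal colonic L cells, stood at 42.5 and 127 CPM against 2.58 and 0.685 CPM, a log2 fold change of 4.92 ± 0.81 (adjusted p = 0.021). Cck, the gene whose Cre labelled the L-cell line, stood at 52.0 and 161 CPM in EC and at 1.62 and 1.06 CPM in the L libraries, a log2 fold change of 5.32 ± 0.74 (adjusted p = 0.0165). Secretin (Sct), found in several enteroendocrine types, stood at 332 and 1113 CPM against 51.2 and 22.1 CPM (log2 fold change 4.13 ± 0.72, adjusted p = 0.0235). In bulk samples, fewer cells of a type and less RNA per cell cannot be told apart. Of the 8 genes on the list 6 passed, 2 only through EC (Cck and Insl5) and 4 through both groups. In all, 4 were called higher in EC (66.7%, against 18.5% of all genes) and 0 higher in L, and the median was 4.66.

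Peptides of other enteroendocrine lineages varied within the EC pair. Somatostatin (Sst), the product of D cells, stood at 16.8 CPM in EC library 1 and 1697 CPM in EC library 2, against 5.97 and 2.70 CPM in L, and was not called (log2 fold change 5.10 ± 2.19, adjusted p = 0.149). That fold was 8.38 without EC library 1 and 1.81 without EC library 2. Amylin (Iapp) stood at 31.9 and 123 CPM against 0.53 and 0.171 CPM and was called (log2 fold change 5.57 ± 0.82, adjusted p = 0.0175). Ghrelin (Ghrl) had 0 reads in the EC libraries and 7 in the L libraries. Pancreatic polypeptide (Ppy) did not pass the filter, at 23.3 and 0 CPM in EC and 25.6 and 2.91 CPM in L. Only 4 of the 15 listed peptides passed, each through the EC libraries alone. Of these 4, 3 were called higher in EC (75%, against 18.5% of all genes).

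Because the study gave estradiol, the receptors for steroids were looked up under vehicle. The estrogen receptor genes were scarcely read in any library. Esr1 had 8 reads in the EC group and 121 in the L group, at 0.752 and 0 CPM against 3.21 and 1.03 CPM, and Esr2 had 0 reads in all 4 libraries. The membrane estrogen receptor Gper1 stood at 3.57 and 11.9 CPM in EC and at 0.0353 and 0 CPM in L. None of the 3 passed the filter, so none was tested. The orphan receptor Esrra, a regulator of mitochondrial genes, was called higher in L, at 12.5 and 14.7 CPM against 87.5 and 86.3 CPM (log2 fold change -2.59 ± 0.36, adjusted p = 0.0166). The mineralocorticoid receptor Nr3c2 was also called higher in L, at 41.6 and 25.0 CPM against 168 and 136 CPM (log2 fold change -2.19 ± 0.36, adjusted p = 0.0215). The glucocorticoid receptor Nr3c1 overlapped between the groups, at 106 and 69.0 CPM against 143 and 90.6 CPM. Of the 9 listed receptors 3 passed, and 2 of these (66.7%) were called higher in L, against 6.12% of all genes.

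All 7 MHC class II genes, whose products present peptides to CD4 T cells and are also made by gut epithelium, were called higher in the EC libraries. Over all genes the share called higher in EC was 18.5%. The median log2 fold change of the 7 was 5.31, and 2 of them passed the filter through both groups and 5 only through EC. Cd74, the invariant chain, stood at 1674 and 1231 CPM in EC and at 15.1 and 21.6 CPM in L, a log2 fold change of 6.23 ± 0.30 (adjusted p = 0.0114). H2-Aa (chromosome 17, 34282744 to 34287823) stood at 310.3 and 349.7 CPM against 3.21 and 4.86 CPM, a log2 fold change of 6.05 ± 0.37 (adjusted p = 0.0132). H2-Ab1 stood at 703 and 667 CPM against 11.1 and 14.3 CPM, and H2-Eb1 at 171 and 121 CPM against 3.46 and 1.99 CPM. The EC replicates lay close together for all 4. The list took 0.311% and 0.251% of reads in EC and 0.00365% and 0.00494% in L. Immune markers were at low level beside them, with a summed share of 0.0085% and 0.00724% in EC and 0.00182% and 0.000815% in L, and 1 of 22 genes past the filter. The pan-leukocyte gene Ptprc stood at 8.46 and 1.41 CPM in EC and at 0.212 and 0.137 CPM in L. The T-cell gene Cd3e had 2 reads in EC and 6 in L, and the dendritic-cell gene Itgax stood at 0 and 6.05 CPM in EC and at 0.495 and 0 CPM in L. The lysozyme gene Lyz2 was the immune marker that passed, at 23.8 and 52.1 CPM against 7.59 and 2.36 CPM, and it was not called (adjusted p = 0.0605). Ptprc, Cd3e and Itgax were chosen for the text after their values had been seen, and the part of immune cells in the MHC class II difference was not tested.

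Among 18 interferon-response genes 13 passed, and 2 were called higher in EC (15.4%, below the 18.5% of all genes) and 0 higher in L. The median was 0.54, near the 0.44 of all genes, and was negative without EC library 1. Usp18, a feedback inhibitor of the pathway and 1 of the 2, stood at 39.8 and 127 CPM against 3.89 and 3.22 CPM (log2 fold change 3.99 ± 0.73, adjusted p = 0.0257). Irf7 lay the other way without a call, at 97.5 and 72.6 CPM in EC against 144 and 196 CPM in L.

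**Figure D4:**
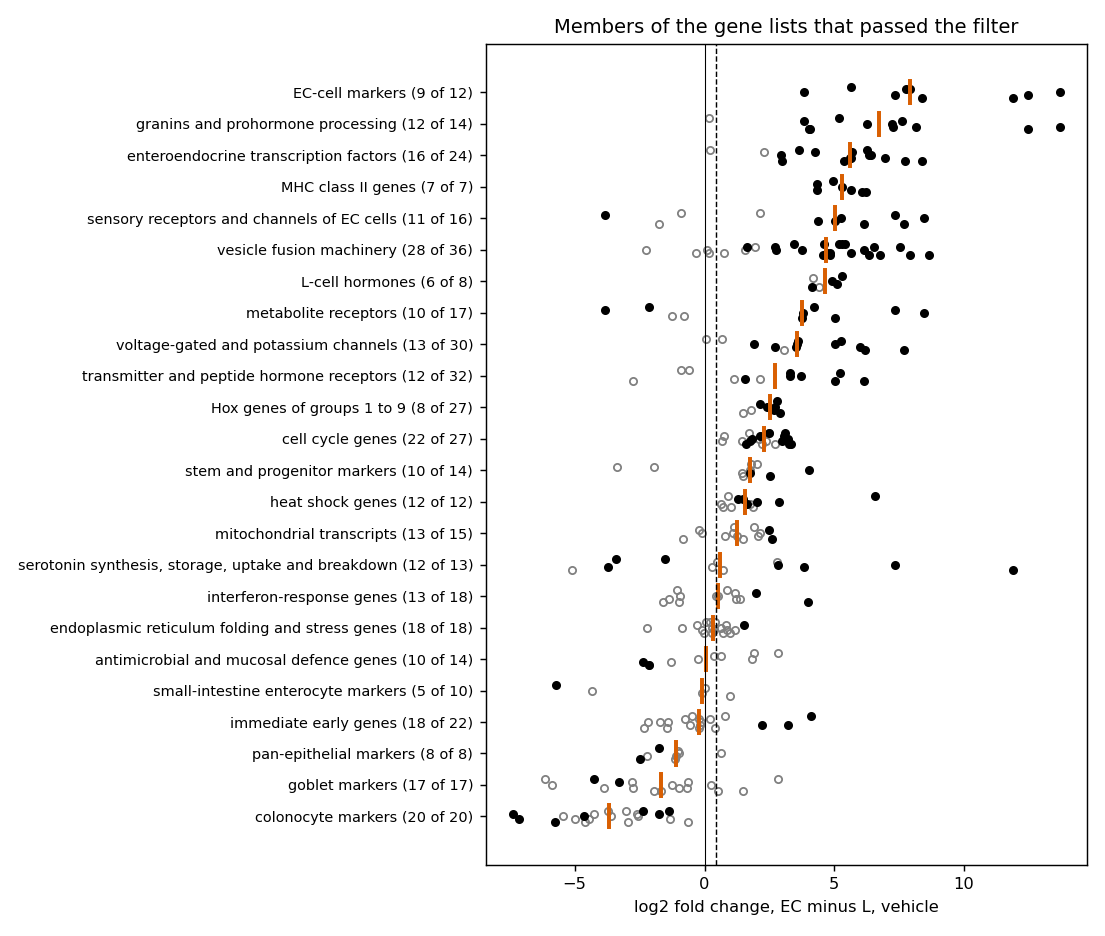
Log2 fold change, EC minus L, of each gene that passed the filter in the 24 lists with at least 5 such genes (filled, called; open, not called), with the list's median as an orange bar and the median of all genes as a dashed line. Numbers beside a list give the genes that passed and the genes listed; endocrine lists and MHC class II genes lie to the right and colonocyte, goblet and pan-epithelial markers to the left.

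Colonocytes are the absorptive cells of the colon. Of 20 colonocyte markers, all passed the filter, 15 of them through both groups and 5 only through L, and 7 were called higher in L (against 6.12% of all genes) and 0 higher in EC. Their median log2 fold change was -3.67, and the groups did not overlap for any of the 20, each higher in L, where 23.1% of all genes did so. Car1, which hydrates carbon dioxide in colonocytes (chromosome 3, 14766214 to 14808365), stood at 2921 and 318 CPM in EC libraries 1 and 2 and at 59800 and 45821 CPM in L libraries 1 and 2. The log2 fold change was -5.76 ± 1.18 (adjusted p = 0.0328), and edgeR gave an adjusted p of 0.0651. Slc51a, a subunit of the basolateral bile acid exporter (chromosome 16, 32475578 to 32487879), stood at 13.9 and 0 CPM in EC and at 569 and 717 CPM in L. Its log2 fold change of -7.37 ± 1.31 was the largest toward L (adjusted p = 0.0242), but it was not called by edgeR (adjusted p = 0.0735) or DESeq2 (0.054). The partner subunit Slc51b differed less, at 10.995 and 8.47 CPM against 46.9 and 62.0 CPM (log2 fold change -2.36 ± 0.47). The cytochrome Cyp2c55 (chromosome 19, 39006940 to 39042690) stood at 518 and 21.8 CPM against 17897 and 13012 CPM, a log2 fold change of -7.13 ± 1.5 (adjusted p = 0.0345), not called by edgeR (adjusted p = 0.0761). The brush border protease Mep1a stood at 32.2 and 12.5 CPM against 493 and 557 CPM (log2 fold change -4.63 ± 0.49, adjusted p = 0.0134). For these genes EC library 1 lay above EC library 2 in each case.

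The 12 genes with the largest fold toward L were mostly enzymes and transporters. The sugar-phosphate exchanger Slc37a2 had 0 reads in both EC libraries and stood at 172 and 120 CPM in L, at least 759-fold higher in L (adjusted p = 0.0132). The carboxylesterase Ces2b also had 0 reads in EC, at 63.4 and 88.1 CPM in L, at least 394-fold higher (adjusted p = 0.0132). Its relatives Ces2a and Ces1f stood at 43.5 and 1.41 CPM and at 16.5 and 0 CPM in EC, against 986 and 1277 CPM and 351 and 262 CPM in L. Carboxylesterases are close copies of one another, so reads shared between them may have been misassigned or left out by the counting. The Ces1f fold of -6.18 became -4.12 without EC library 2, and its call (adjusted p = 0.0396) was lost with a pseudocount of 0.5 (0.0531), a filter blind to group (0.0502), edgeR (0.105) and DESeq2 (0.146). The Ces2a call was lost in edgeR (0.0746). The flavin monooxygenase Fmo5 stood at 2.26 and 0.202 CPM in EC against 215 and 304 CPM in L, and the glutamyltransferase Ggt1 at 0 and 0.404 CPM against 99.5 and 140 CPM. The hexokinase-like Hkdc1 was even in both pairs, at 2.35 and 2.02 CPM against 191 and 277 CPM (log2 fold change -6.18 ± 0.45, adjusted p = 0.0132). The potassium channel Kcnk5, the pantetheinase Vnn1 and the phospholipase Plcd1 completed the group, each under 3 CPM in both EC libraries and between 69.7 and 203 CPM in the L libraries. Alpi, intestinal alkaline phosphatase and a small-intestine enterocyte marker, stood at 10.2 and 0 CPM against 176 and 177 CPM (log2 fold change -5.73 ± 1.21, adjusted p = 0.0351), and was not called by edgeR (adjusted p = 0.0938) or DESeq2 (0.13). It was the only called gene of the 5 that passed among 10 small-intestine enterocyte markers (20%, against 6.12% of all genes called higher in L). Of the 5, 1 passed only through EC and 2 only through L, Alpi among the latter, so this share does not support a direction. The median of these markers, -0.10, turned positive without EC library 2 or L library 2.

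Goblet-cell genes act in mucus and its packaging. All 17 markers passed, 12 through both groups and 5 only through L. Of these, 2 were called higher in L (against 6.12% of all genes) and 0 higher in EC, and the median was -1.67. The groups did not overlap for 7 higher in L and 1 higher in EC, and overlapped for 9. The 17 markers took 1.55% of reads in EC library 1 and 0.144% in EC library 2, against 0.653% and 1.28% in the L libraries. Muc2 and Clca1 are given as examples of this division, chosen after their values had been seen. The gel-forming mucin Muc2 stood at 2244 and 53.7 CPM in EC and at 1105 and 1658 CPM in L. The mucus protease Clca1 stood at 7771 and 6.46 CPM against 2655 and 4779.6 CPM. EC library 1 thus exceeded both L libraries for these 2 genes and EC library 2 lay far below them. Trefoil factor 3 (Tff3) did not overlap and was called higher in L, at 79.9 and 49.8 CPM against 383 and 1039 CPM (log2 fold change -3.30 ± 0.56, adjusted p = 0.0227). The only other call was Fer1l6, which passed the filter only through L, at 2.07 and 0 CPM against 27.2 and 38.4 CPM. It was not called by edgeR (adjusted p = 0.091). Agr2, a disulfide isomerase for mucins, lay the other way, at 2479 and 1138 CPM against 497 and 742 CPM, without a call (adjusted p = 0.0881).

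Of 8 markers of the epithelium as a whole 2 were called higher in L (25%, against 6.12% of all genes) and 0 higher in EC. The median was -1.12. Cdx1, an intestinal identity factor, stood at 63.1 and 148 CPM against 527 and 573 CPM (log2 fold change -2.49 ± 0.45, adjusted p = 0.0254), and E-cadherin (Cdh1) at 553 and 299.6 CPM against 1294 and 1499 CPM. The Cdh1 call was lost with quantile scaling (adjusted p = 0.078) and in edgeR (0.0574). The keratin Krt8 was not called, at 3269 and 1815 CPM against 10127 and 12971 CPM (adjusted p = 0.0505).

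Of 27 cell cycle genes 22 passed, 11 of them only through the EC libraries. The groups did not overlap for any of the 22, each higher in EC, where 48.2% of all genes did so. In all 12 were called higher in EC (against 18.5% of all genes) and 0 higher in L, with a median of 2.30. The proliferation antigen Mki67 stood at 57.2 and 70.0 CPM in EC and at 8.51 and 3.73 CPM in L (log2 fold change 3.26 ± 0.58, adjusted p = 0.0242). The microtubule regulator Stmn1, which endocrine cells also express, stood at 112 and 249 CPM against 17.2 and 14.1 CPM (log2 fold change 3.34 ± 0.48, adjusted p = 0.0172). The centromeric histone Cenpa stood at 27.3 and 33.9 CPM against 3.36 and 1.57 CPM, and the chromatin protein Hmgb2 at 123 in both EC libraries against 36.9 and 34.6 CPM. Of 14 stem and progenitor markers 10 passed, 3 only through EC. Of these 10, 3 were called higher in EC (30%, against 18.5% of all genes) and 0 higher in L. The median was 1.75, and -0.81 with a filter at 50 CPM. The called genes were the Wnt target Axin2, at 8.55 and 5.25 CPM against 0.247 and 0.411 CPM, the receptor Tnfrsf19, and the ion cotransporter Slc12a2 at 124 and 81.5 CPM against 34.2 and 24.4 CPM. Each lost its call in at least 1 other fit, Axin2 (adjusted p = 0.118) and Slc12a2 (0.0739) with quantile scaling and Tnfrsf19 in edgeR (0.135). As a share of reads the list was lower in EC, at 0.0774% and 0.0395% against 0.145% and 0.121%.

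Hox genes mark position along the gut. Of 27 genes of groups 1 to 9, 8 passed, 4 only through EC, and 6 were called higher in EC (against 18.5% of all genes) and 0 higher in L, with a median of 2.54. Hoxb9 stood at 105 and 156 CPM in EC and at 23.1 and 23.7 CPM in L (log2 fold change 2.40 ± 0.34, adjusted p = 0.0167). Hoxa7 stood at 44.8 and 108 CPM against 9.82 and 10.3 CPM, and was not called after TMM or size factor scaling. Hoxa5 stood at 10.3 and 15.7 CPM against 0.954 and 0.753 CPM, and Hoxa9 at 37.4 and 26.8 CPM against 4.35 and 3.53 CPM. The calls of Hoxa5, Hoxa7 and Hoxa9 were lost with quantile scaling (adjusted p from 0.0608 to 0.109), and that of Hoxa9 with a replicate block (0.0506). Of 12 genes of groups 10 to 13, 2 passed and neither was called. Hoxa10 stood at 16.0 and 49.0 CPM against 3.74 and 3.70 CPM (adjusted p = 0.06). Hoxb13, the most posterior of these, divided the EC libraries at 6.202 and 49.2 CPM against 37.6 and 56.2 CPM, and its log2 fold change of -1.30 became 0.096 without EC library 1. Hox genes lie in clusters with overlapping and antisense transcripts, and the strand setting of the counting is not given in the sources used here.

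Defence, early response, heat shock and endoplasmic reticulum genes were counted against the 18.5% of all genes called higher in EC and the 6.12% called higher in L. Of 14 antimicrobial and mucosal defence genes 10 passed, 2 were called higher in L and 0 higher in EC, and the median of 0.050 turned negative under TMM, size factors and totals without colonocyte markers. The called genes were the lectins Reg3g, at 288 and 129 CPM against 763 and 1336 CPM (log2 fold change -2.38 ± 0.51, adjusted p = 0.0356), and Reg3b, at 1229 and 541 CPM against 3083 and 4098 CPM (log2 fold change -2.12 ± 0.51, adjusted p = 0.045). Both calls were lost with quantile scaling, in edgeR and in the fit of all 11 libraries (adjusted p from 0.0549 to 0.13 for Reg3g and from 0.0667 to 0.12 for Reg3b), and that of Reg3b also with a filter blind to group (0.0507). They are close copies, and reads shared between them may have been misassigned or left out. Another lectin, Reg4, lay the other way at 473 and 1316 CPM against 169 and 286 CPM, without a call (adjusted p = 0.0793). Of 22 immediate early genes 18 passed, 3 were called higher in EC (16.7%, near the share of all genes) and 0 higher in L (median -0.22). The 3 are given as values of single genes. Fosb stood at 229.96 and 177 CPM against 42.3 and 43.5 CPM (log2 fold change 2.21 ± 0.27, adjusted p = 0.0145). Nr4a1 stood at 247 and 416 CPM against 25.4 and 43.6 CPM. Klf2, which passed only through EC, stood at 20.4 and 75.9 CPM against 2.05 and 0.822 CPM. All 3 calls were lost in the fit of all 11 libraries (adjusted p = 0.485 for Fosb, 0.0777 for Nr4a1 and 0.0941 for Klf2). The Klf2 call was also lost with quantile scaling (0.0657). Atf3 was not called, at 147 and 41.8 CPM against 318 and 504 CPM. All 12 heat shock genes passed, and 6 were called higher in EC and 0 higher in L (median 1.57). The small heat shock protein Hspb1 stood at 78.1 and 223 CPM against 0.177 and 0.65 CPM (log2 fold change 6.58 ± 0.73, adjusted p = 0.0138), while Hsp90aa1 differed less, at 495 and 872 CPM against 86.6 and 92.7 CPM, and Dnaja1 less still, at 509 and 477 CPM against 170 and 144 CPM. Of 18 genes for folding and stress in the endoplasmic reticulum, all of which passed, 1 was called, Atf4, at 150 and 157 CPM against 47.4 and 59.0 CPM. Its call was lost with TMM (adjusted p = 0.0615) and size factor scaling (0.0725), under which the median of the list, 0.33, turned negative.

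Mitochondrial transcripts took 4.42% and 2.84% of reads in EC and 2.93% and 1.36% in L. Of 13 that passed among 15 listed, 2 were called higher in EC (15.4%, below the 18.5% of all genes) and 0 higher in L. One was the ribosomal RNA mt-Rnr1, at 1149 and 1298 CPM against 309.6 and 126 CPM. The other was ND2, a subunit of complex I, at 1122 and 797 CPM against 259 and 109 CPM. Both calls were lost with array weights (adjusted p = 0.0558 and 0.0599).

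Markers of tuft cells, a rare epithelial type, and of cells outside the epithelium seldom passed the filter. Of 15 tuft-cell markers 1 passed, Alox5ap, only through EC. It was called higher in EC (against 18.5% of all genes), at 17.2 and 35.9 CPM against 0.106 and 0.205 CPM (log2 fold change 4.49 ± 0.55, adjusted p = 0.0147). Of 10 neuron and glia markers 2 passed, only through EC, and both were called higher in EC (against 18.5% of all genes). Among them the receptor Ret stood at 54.3 and 21.0 CPM against 0.636 and 0.993 CPM. Of 17 stromal and endothelial markers 2 passed, 1 only through EC and 1 only through L. The one that passed through EC, the endothelial adhesion protein Pecam1, was called higher in EC (50%, against 18.5% of all genes). It stood at 38.2 and 53.5 CPM against 4.52 and 2.84 CPM. The collagens and matrix genes of that list stood out in 1 library: Col3a1 was at 136 CPM in L library 2 and at 0.376, 0.404 and 4.03 CPM in the other 3 libraries, and Dcn at 43.6 CPM against 0, 0 and 0.777 CPM.

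The same contrast in the EB libraries, which share no sample with the vehicle comparison, gave 1218 calls over the same genes. The EC libraries were higher for 546 (5.1% of the genes tested) and the L libraries for 672 (6.27%). Genes called in the same direction in both comparisons numbered 386 higher in EC, or 19.4% of the vehicle calls and 70.7% of the EB calls, and 254 higher in L, or 38.8% and 37.8%. No gene was called in opposite directions. A direct test of whether the difference between EC and L libraries changed with EB called 0 genes in limma (smallest adjusted p = 0.660, with 690 genes at an unadjusted p under 0.05), 0 in edgeR and 16 in DESeq2. Without EC vehicle library 1 it called 76 genes and without EC EB library 3 it called 47. A count of 0 does not show that the differences were equal. The EB count itself fell to 178, 135 and 164 without L EB library 1, 2 or 3.

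Single genes were set side by side on this basis. MHC class II genes were called higher in EC in both treatments, 7 of 7 each time, and H2-Aa had a log2 fold change of 6.05 ± 0.37 under vehicle and 6.30 ± 0.46 under EB. Tph1 had 11.89 ± 0.25 and 8.06 ± 1.01, Chgb 13.70 ± 0.71 and 8.10 ± 0.99, and Olfr78 8.47 ± 0.48 and 5.75 ± 0.60, each called in both. The EC-cell marker list took 0.815%, 1.12%, 4.78% and 12.4% of reads in the 4 EC libraries under EB, a wider range than the 7.42% and 8.88% under vehicle. The serotonin transporter Slc6a4 had -3.40 ± 0.37 and -3.61 ± 0.79. Hormones of L cells were called 4 times under vehicle and 0 times under EB, and Pyy had 4.40 ± 1.14 and 0.17 ± 0.74, but the difference between those folds was not called (adjusted p = 0.66). Reg3g had -2.38 ± 0.51 and 2.59 ± 0.85, and Fosb 2.21 ± 0.27 and -2.45 ± 1.82, also without a called difference (adjusted p = 0.66 for both). Car1 had -5.76 ± 1.18 under vehicle and -2.28 ± 0.93 under EB, where colonocyte markers took 3.90%, 4.23%, 1.24% and 0.708% of reads in the EC libraries.

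**Figure D5:**
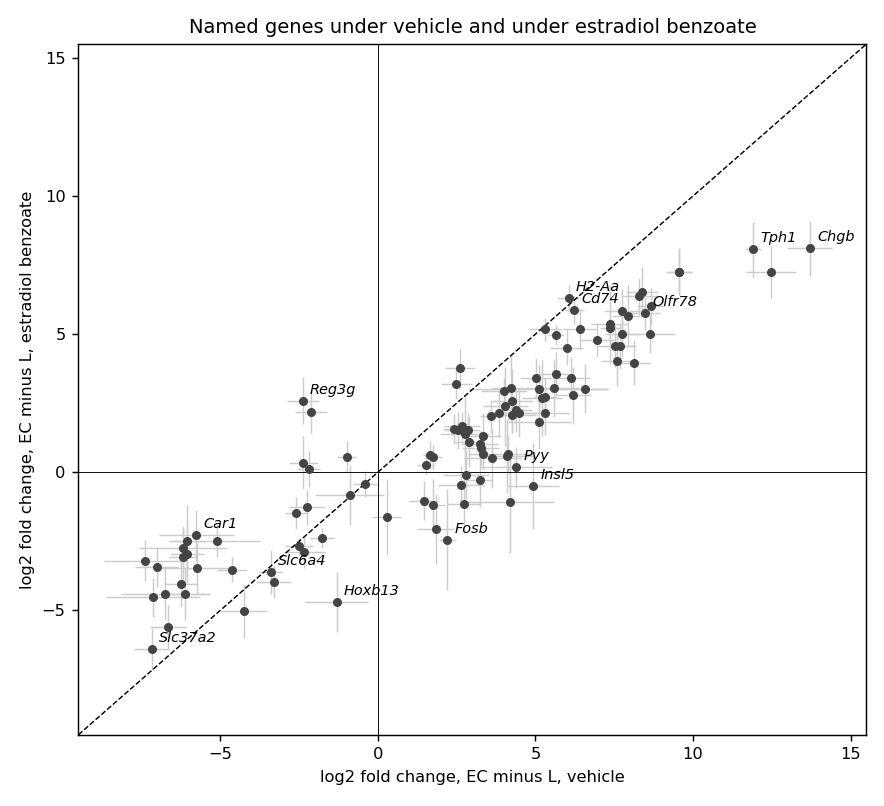
Log2 fold change, EC minus L, under vehicle (x axis) and under estradiol benzoate (y axis) for the 108 named genes that passed the filter, with SE bars and the line of equal folds dashed. MHC class II genes (H2-Aa, Cd74) lie near the line, Chgb and Tph1 lie below it at the upper right, and Reg3g and Fosb lie on opposite sides of 0 in the 2 comparisons.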

How the data were processed

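Per the labels' protocols, TRIzol RNA of isolated colon cells gave full-length cDNA with a SMART-Seq HT kit, which was tagmented with Nextera XT. The submitters' processing notes list mm10, STAR, featureCounts and DESeq2 with no version numbers. What the authors deposited is a normalised count (a signal) for each gene in each library, in separate tables for EC and L cells that were normalised independently. In each library used, 100% of values above 0 were whole multiples of the smallest one, to within 0.001 of a read, so the reads were recovered, which undoes the separate normalisation, and were scaled to CPM. Levels are therefore set across tables on each library's own total. All 49997 symbols were found in RefSeq's annotation of GRCm38.p6 (mm10), the source of coordinates and promoters.

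Genes at 5 CPM or more in both libraries of at least 1 group were tested two-sided over the 4 libraries on log2(CPM + 1), using limma 3.58.1 (R 4.3.3) with a trended prior variance and no covariate, with Benjamini-Hochberg adjustment over all genes kept. Fold changes on that scale understate the change of low genes. The EB contrast used 7 libraries and the difference between treatments 11, over the same genes. A limit for a group at 0 was set at 3 reads over the group, and counting intervals are exact at 95%. Intervals and limits cover counting error only. Alternatives were pseudocounts of 0.5 and 4, 3 other filters, 4 other scalings, thinning of all libraries to 4955808 reads, count tests of the reads (edgeR 4.0.16, DESeq2 1.42.0), robust and weighted fits, all 11 libraries in 1 fit, blocking on replicate number, leaving out each library, and a threshold of 0.01. Leaving out EB libraries was added after seeing the data. The replicate numbers did not pair the samples (correlation of replicate differences between cell types -0.023). The method was tested on simulated data with the unequal spreads of the EC and L pairs. There, an unadjusted p under 0.05 came up more often than its nominal rate, so the unadjusted counts should not be leaned on. Adjusted p-values are computed from these p-values, so the calls may hold more false ones than their threshold states.

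The members, the 31 gene lists and the tests were chosen with earlier results of these data known. Some lists share members, so their counts are not independent. Among others, EC-cell markers share Fev and Lmx1a with the transcription factors, and Tph1, Slc18a1 and Ddc with the serotonin genes. The EC-cell sensory list shares Olfr78 and Olfr558 with the metabolite receptors. It also shares Npy1r with the transmitter receptors and Scn3a with the channel genes. Named genes were up to 12 per direction with the largest fold among called genes with groups that did not overlap and a mean of at least 50 CPM in the higher group, a set of hormone and receptor genes, and up to 4 members per list by the smallest p. Predicted and uncharacterised genes were left out, and some genes given by the rule are left out here. Individual members of marker lists were also named after their values were seen, namely Maoa, Maob, Aldh2, Gch1, Spr, Pts, Qdpr, Ptprc, Cd3e, Itgax, Muc2, Clca1, Col3a1 and Dcn.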

Additional observations from a re-analysis of the deposited data

Results flagged for a closer look

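The group of 4 EC libraries under EB was the only one large enough to scan for a library far from the others (Dixon's test at its 95% critical value). The scan covered 119 named genes and the read shares of 31 lists, and chance marks about 1 in 20 groups. It marked 12 genes and 3 lists, and none of these libraries is in the vehicle comparison. Values are log2(CPM + 1) in the library that stood apart. EC EB library 3 stood apart as the highest for Ghrl (2.93), Ppy (5.79), Slc6a4 (2.35), Trpc4 (2.60), Ffar3 (2.00), Esr2 (0.71), Fer1l6 (3.58), Cd3e (0.56) and Itgax (0.56). In 8 of these 9 genes the other 3 libraries had 0 reads, and for Trpc4 1 of the 3 had reads. Levels in EC EB library 3 ran from 0.475 CPM (Cd3e and Itgax) to 54.3 CPM (Ppy). EC EB library 2 stood apart for Trpa1 (0.62, the only library with reads) and as the lowest for Alox5ap (0.24). EC EB library 4 was the lowest for mt-Rnr1 (10.36). Of the list shares, EC EB library 3 was the highest for L-cell hormones (1.04% of reads), goblet markers (0.935%) and tuft markers (0.00682%).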

How the results depend on the processing

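Without EC vehicle or L vehicle libraries in turn, the calls ranged from 0 to 7280 (0 to 4372 higher in EC, 0 to 2908 higher in L). The calls numbered 1 (1 higher in EC, 0 in L) with no filter and at an adjusted p under 0.01, 1490 (955 in EC) at 50 CPM, 1660 (1243 and 417) with a filter blind to group, 1695 (951 in EC) with quantile scaling and 1722 (1143 in EC) in a fit of all 11 libraries. TMM gave 1243 and 1099, DESeq2 size factors 1196 and 1195, and edgeR 1793 calls, 364 of them in L. Other totals were within 1.5 times of 2641, among them the replicate block at 2433 calls and DESeq2 at 3893. The numbers share no pairing, and the block lost 1 and gained 5 of the named calls. Of 92 named calls, 91 were lost with no filter, and at most 17 in any fit other than that, the stricter p and those without an L library. The difference between treatments called 16 genes in DESeq2 and 0 to 76 without each library in turn, and the EB contrast 135 to 1790.

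Directions turned for Maob (-0.23 with TMM, -0.28 with size factors, -0.19 with quantile scaling, -0.17 to 0.73 without each library in turn), Adra2a (-2.35 to 0.55) and Hoxb13 (-2.71 to 0.096). List medians turned for small-intestine enterocyte markers (-2.01 to 0.33, with 0.26 without EC replicate 2), stem and progenitor markers (-0.81 at 50 CPM), stromal and endothelial markers (-0.68 with no filter, -1.82 blind to group) and interferon-response genes (-0.55 to 1.42). They also turned for Hox groups 10 to 13 (-0.14 with no filter, -0.27 quantile, -0.43 to 1.75) and endoplasmic reticulum genes (-0.19 TMM, -0.24 size factors). Antimicrobial genes gave -1.20 at 50 CPM, -0.47 with TMM, -0.52 with size factors, -0.092 with totals without colonocyte markers, and -1.46 to 0.60 without each library in turn (-0.15 without L replicate 1). The cause was not tested. With 2 libraries a group, low genes of EC library 2, the shallowest, carry the largest counting error.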
